A study of Mus musculus with 12 samples.

Results

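Transcripts of 10 genes of small-RNA defence against transposons were followed in sorted female germ cells of single mouse embryos: Mael, Tdrd1, Tdrd5, Tdrd9, Tdrd12, Mov10l1, Mov10, Asz1, Piwil2 and Piwil4. The genes were chosen by name. Small RNAs, transposon transcripts and proteins were not examined here. All 10 are among the 12516 symbols of the deposited expression table, and all 10 passed the filter on low values that left 12432 genes for testing. In 6 embryos (withdrawn) vitamin C was taken from the mother over the first 2 weeks of gestation, and in the other 6 (supplied) the mother received it at a physiological level. All 12 embryos were female, at embryonic day 13.5, on a C57BL/6 background and of genotype Gulo-/-, so neither group could make its own vitamin C, because Gulo encodes the last enzyme of its synthesis. Germ cells were sorted as Oct4-positive cells. The question behind the series is what maternal vitamin C does to the germline of the embryo.

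PIWI-interacting RNAs (piRNAs) are small RNAs of the germline. They guide PIWI proteins to transposon transcripts, which are cut in the cytoplasm, and, in fetal male germ cells, to transposon DNA, which becomes methylated. Precursor transcripts are processed at the outer face of mitochondria and in germ granules called nuage, where Tudor-domain proteins hold PIWI proteins together with helicases. In mice, loss of most of these factors stops spermatogenesis, whereas females usually stay fertile. At the age studied, female germ cells leave mitotic proliferation and enter meiosis.

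Transcripts of a nuage protein (Mael), a Tudor scaffold (Tdrd1), the piRNA precursor helicase (Mov10l1) and a mitochondrial anchor (Asz1) were lower in withdrawn than in supplied embryos, by 1.3-fold to 1.7-fold. The broadly expressed helicase gene Mov10, the paralog of Mov10l1, was 1.25-fold higher, a call that was lost in 16 of 29 alternatives. The PIWI genes Piwil2 and Piwil4 and the Tudor genes Tdrd5, Tdrd9 and Tdrd12 did not pass the test. A gene was called at an adjusted p below 0.05 in a limma fit of withdrawn against supplied embryos over all 12432 genes, with Benjamini-Hochberg adjustment. By this rule 4 of the 10 genes were called lower, where 7.75% of all genes tested were lower, and 1 was called higher, where 6.22% of all genes were higher. In either direction 5 of 10 were called, against 14.0% of all genes. The median log2 difference was -0.12 over the 10 genes and -0.01 over all genes tested. These 10 genes were grouped with earlier results of these data known, so the counts describe them and are not a test.

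The stretches around the transcription start of the 5 called genes are shown because these are the genes that differed between the diets. Each window runs from 250 bases before to 50 bases after the annotated start, read 5′ to 3′ on the strand of the gene. The sequences come from RefSeq on build GRCm38.p6, whereas the submitters' processing notes name mm9, so they were matched by symbol and not by coordinate. Capitals mark the palindromic E-box CACGTG, a site for basic helix-loop-helix proteins.
Mael, chr1:166238695-166238994, minus strand: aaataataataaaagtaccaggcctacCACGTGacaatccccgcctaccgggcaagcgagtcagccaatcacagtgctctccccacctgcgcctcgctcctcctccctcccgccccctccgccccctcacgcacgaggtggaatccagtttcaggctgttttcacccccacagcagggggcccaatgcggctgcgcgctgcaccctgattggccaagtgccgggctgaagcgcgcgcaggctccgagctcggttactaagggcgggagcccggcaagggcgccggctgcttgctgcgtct
Tdrd1, chr19:56825959-56826258, plus strand: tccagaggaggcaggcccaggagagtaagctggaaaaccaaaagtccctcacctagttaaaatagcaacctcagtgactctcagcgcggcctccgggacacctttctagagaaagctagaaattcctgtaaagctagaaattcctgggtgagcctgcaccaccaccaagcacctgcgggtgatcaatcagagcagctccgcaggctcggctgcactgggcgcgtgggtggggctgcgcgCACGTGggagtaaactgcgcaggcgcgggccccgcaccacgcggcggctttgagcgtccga
Mov10l1, chr15:88982744-88983043, plus strand: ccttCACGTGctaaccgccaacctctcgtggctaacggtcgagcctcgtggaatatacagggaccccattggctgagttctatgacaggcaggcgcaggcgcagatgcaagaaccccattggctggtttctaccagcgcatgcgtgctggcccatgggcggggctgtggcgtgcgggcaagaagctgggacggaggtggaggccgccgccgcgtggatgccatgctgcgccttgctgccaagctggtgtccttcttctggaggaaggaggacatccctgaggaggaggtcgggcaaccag
Asz1, chr6:18109012-18109311, minus strand: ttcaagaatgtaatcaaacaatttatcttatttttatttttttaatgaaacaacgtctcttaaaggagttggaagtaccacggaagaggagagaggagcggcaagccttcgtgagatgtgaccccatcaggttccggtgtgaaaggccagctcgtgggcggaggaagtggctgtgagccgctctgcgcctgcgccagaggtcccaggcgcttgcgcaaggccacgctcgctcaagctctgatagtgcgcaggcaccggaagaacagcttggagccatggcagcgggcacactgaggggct
Mov10, chr3:104818514-104818813, minus strand: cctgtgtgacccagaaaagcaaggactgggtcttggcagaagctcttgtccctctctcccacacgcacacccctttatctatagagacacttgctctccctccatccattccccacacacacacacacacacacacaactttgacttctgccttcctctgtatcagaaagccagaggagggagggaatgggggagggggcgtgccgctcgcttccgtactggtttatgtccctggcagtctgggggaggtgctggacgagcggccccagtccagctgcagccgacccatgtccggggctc

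The E-box CACGTG occurred in the windows of Mael, Tdrd1 and Mov10l1, which were lower in withdrawn embryos, and of Tdrd9, which did not pass the test. It lay 223 bases before the start in Mael, 11 before it in Tdrd1 and 246 before it in Mov10l1. RefSeq gives 3 windows for Tdrd1 and 2 for Mov10, of which the first listed is shown, and the second window of Tdrd1 has an E-box 77 bases before its own start. RefSeq windows were found for 9 of the 10 genes, Piwil2 being the exception, and 4 of these 9 held the E-box in at least 1 window, where 8.09% of the 27025 genes with windows did. The window of Mael also held the E2F-type sequence GGCGGGA on both strands, which 12.75% of genes held. The sequence CNCCTCAG, reported as a STRA8 motif, was found on the opposite strand in Mov10l1 and Asz1, 2 of the 9 genes, where 9.12% of all genes held it. Motifs were searched on both strands, and none of the matches overlapped another. CG dinucleotides in the first listed window numbered 24 in Mael, 20 in Tdrd1, 20 in Mov10l1, 17 in Asz1 and 9 in Mov10. Among the genes not called they numbered 48 in Tdrd5, 10 in Tdrd9, 11 in Tdrd12 and 11 in Piwil4. The median over 32851 windows was 7 and the upper quartile 20. The 27025 genes were not limited to those tested or matched for CG content, and the E-box itself holds a CG. Shares of the 9 genes and of all genes are therefore not like for like. These matches describe letters in a window and say nothing on binding.

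Values are normalized log2 expression as deposited, in which 1 unit is a doubling. If the authors' log transformation shrank poorly covered genes, differences of genes with low values are understated. Sequencing depth per library is unknown, since the table holds no counts. Library medians were between 8.07 and 8.14, and pairs of libraries correlated at 0.987 to 0.999 over all genes. Of the 13 germ cell markers, which include Mael itself, 11 lay above the median gene. In withdrawn embryos 6 of these 13 passed the test upward and 3 downward. Of 43 listed markers of supporting, mesenchymal and endothelial cells and macrophages, 31 were kept and 1 of these lay above the median gene. The mean of those 31 per embryo was 5.22 to 5.33 in withdrawn and 5.24 to 5.43 in supplied embryos, and 25 of the 31 were negative, 2 of them called lower. No value in the table was 0. With this mean as a covariate Mael, Tdrd1, Mov10l1 and Asz1 were still called and Mov10 was not, so 4 of the 10 genes were called where 3.12% of all genes were. In sorted cells, fewer cells of a type and less RNA per cell cannot be told apart. The labels do not say which embryos were littermates, and p values treat the embryos as independent.

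Mael encodes Maelstrom, an HMG-box protein of nuage that is required in mice for silencing of LINE-1 elements. Its value was 8.42 at the lowest, 9.07 at the median and 9.29 at the highest in withdrawn embryos, against 9.39, 9.73 and 10.24 in supplied embryos. The highest withdrawn embryo lay below the lowest supplied embryo, so the groups did not overlap. Lower values without overlap were found for 2.34% of all genes. The means were 9.02 ± 0.32 in withdrawn and 9.78 ± 0.28 in supplied embryos (SD, n = 6 each), a log2 difference of -0.77 (SE 0.13, limma adjusted p = 0.00209). This was a 1.7-fold lower level, and the difference was the 11th most negative among the 12432 genes.

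Tdrd1 encodes a scaffold with several Tudor domains that binds methylated arginines of PIWIL2. In withdrawn embryos it was at 7.44 at the lowest, 7.63 at the median and 7.89 at the highest, against 7.78, 8.33 and 8.76 in supplied embryos. The groups overlapped through a single supplied embryo, replicate 4, at 7.78. The difference was -0.66 (SE 0.12, limma adjusted p = 0.00219), and 6 of 6 withdrawn embryos were below the supplied mean. Tdrd1 was not called by an exact permutation test per gene (adjusted p = 0.0692), which called 4.49% of all genes. The same share of genes had no overlap in either direction, so this test restates the overlap.

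Mov10l1 encodes a germline RNA helicase that binds piRNA precursors and feeds them into processing. It had a lowest value of 10.13, a median of 10.55 and a highest value of 10.72 in withdrawn embryos, against 10.78, 10.91 and 11.22 in supplied embryos. The groups stood next to each other without overlap. The difference was -0.47 (SE 0.09, limma adjusted p = 0.00417).

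Asz1 encodes GASZ, a protein with ankyrin repeats that sits at the outer mitochondrial membrane and is needed for nuage to form in male germ cells. It was at 9.02, 9.18 and 9.31 (lowest, median, highest) in withdrawn embryos, against 9.46, 9.56 and 9.66 in supplied embryos. The groups were apart, and both were narrow, with an SD of 0.10 in withdrawn and 0.07 in supplied embryos. The difference of -0.37 (SE 0.07, limma adjusted p = 0.00219) was smaller than that of Mael, at a nearly equal adjusted p.

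Mov10 encodes a helicase found in many tissues that restricts LINE-1 retrotransposition in cultured cells. It had a lowest value of 10.44, a median of 10.58 and a highest value of 11.06 in withdrawn embryos, against 10.08, 10.25 and 10.65 in supplied embryos. The groups overlapped, with supplied replicate 4 at the level of the upper withdrawn embryos. The difference was 0.33 (SE 0.10, limma adjusted p = 0.0354), and 6 of 6 withdrawn embryos were above the supplied mean. The alternatives that lost the call included the random effect for embryos with the same title number and diet (adjusted p = 0.0914) and leaving out withdrawn replicate 5 (0.24, adjusted p = 0.0795).

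**Figure D1:**
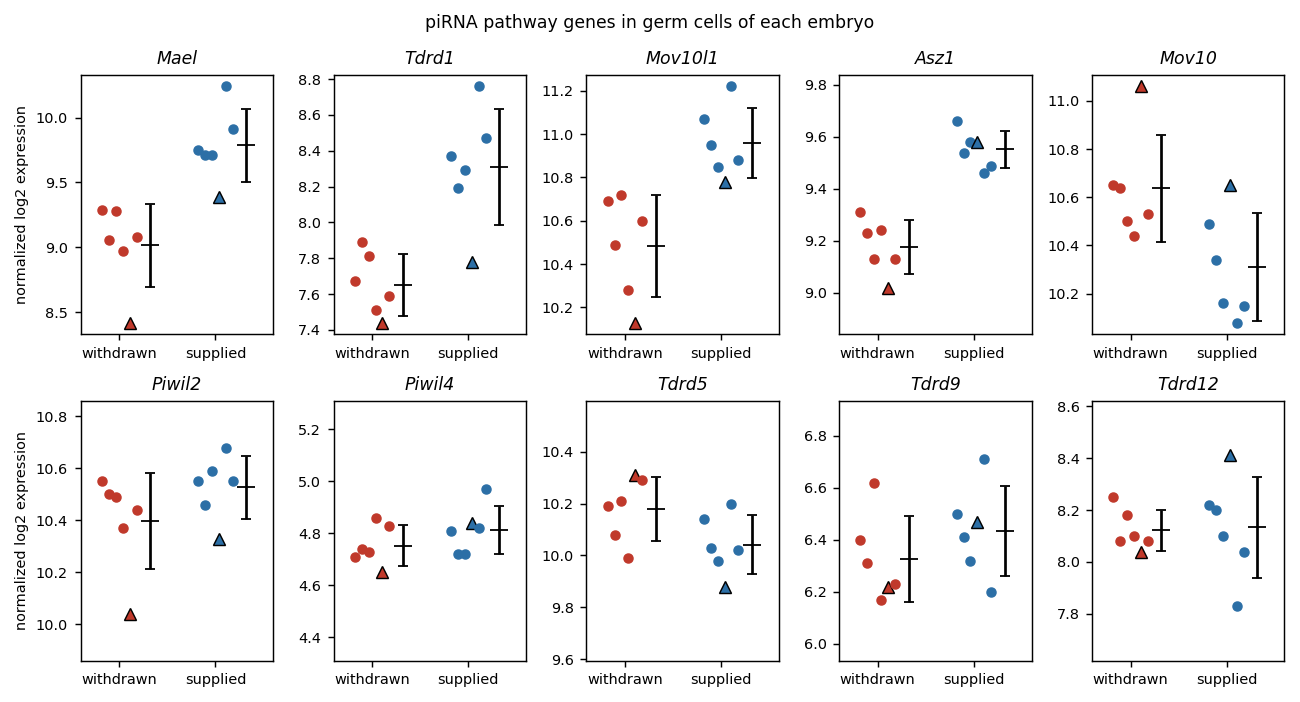
Normalized log2 expression of the 10 genes in each of 6 withdrawn (red, left) and 6 supplied (blue, right) embryos, with mean and SD as black bars and a separate vertical scale per gene. Triangles mark withdrawn replicate 5 and supplied replicate 4. Mael, Mov10l1 and Asz1 show no overlap between the groups, and withdrawn replicate 5 holds the lowest Mael (8.42) and the highest Mov10 (11.06).

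The log2 ratio of Mov10l1 to Mov10 within each embryo, which a common scaling factor cannot move, put the paralogs side by side. This ratio was chosen after the values had been seen and was not tested. It averaged -0.15 ± 0.41 in withdrawn and 0.65 ± 0.32 in supplied embryos (SD, n = 6 each). It ranged from -0.93 to 0.22 in withdrawn and from 0.14 to 1.14 in supplied embryos. The ranges met only through supplied replicate 4, at 0.14, which lay below withdrawn replicate 3, at 0.22.

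The genes of the PIWI proteins themselves showed smaller differences. Piwil2 encodes MILI, the cytoplasmic PIWI protein of fetal germ cells, and was at 10.04, 10.46 and 10.55 (lowest, median, highest) in withdrawn embryos, against 10.33, 10.55 and 10.68 in supplied embryos. The groups overlapped between 10.33 and 10.55, and the difference was -0.12 (SE 0.08, limma adjusted p = 0.313) with a 95% interval of -0.29 to 0.04. Piwil4 encodes MIWI2, which acts in the nucleus of fetal male germ cells to direct DNA methylation. It had values from 4.65 to 4.86 in withdrawn and from 4.72 to 4.97 in supplied embryos, far below the library medians. Its difference was -0.06 (SE 0.04, limma adjusted p = 0.390), and at such a level a shrinking transformation could hide a change.

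The Tudor-domain genes were divided, since Tdrd1 fell and the other 3 members of that family were not called. Tdrd5, whose protein takes part in nuage assembly, ranged from 9.99 to 10.31 in withdrawn and from 9.88 to 10.20 in supplied embryos, with a difference of 0.13 (95% interval -0.01 to 0.28, limma adjusted p = 0.216). Tdrd9, a helicase partner of MIWI2 in the testis, ranged from 6.17 to 6.62 in withdrawn and from 6.20 to 6.71 in supplied embryos, with a difference of -0.11 (95% interval -0.28 to 0.06, limma adjusted p = 0.383). Tdrd12, needed in mouse testis for loading of MIWI2 with piRNAs, was at 8.12 ± 0.08 in withdrawn and 8.13 ± 0.20 in supplied embryos (SD, n = 6 each). Its interval, -0.18 to 0.16, excludes a difference of the size seen in Tdrd1. Whether the difference of Tdrd1 is itself different from those of the other Tudor genes was not tested.

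**Figure D2:**
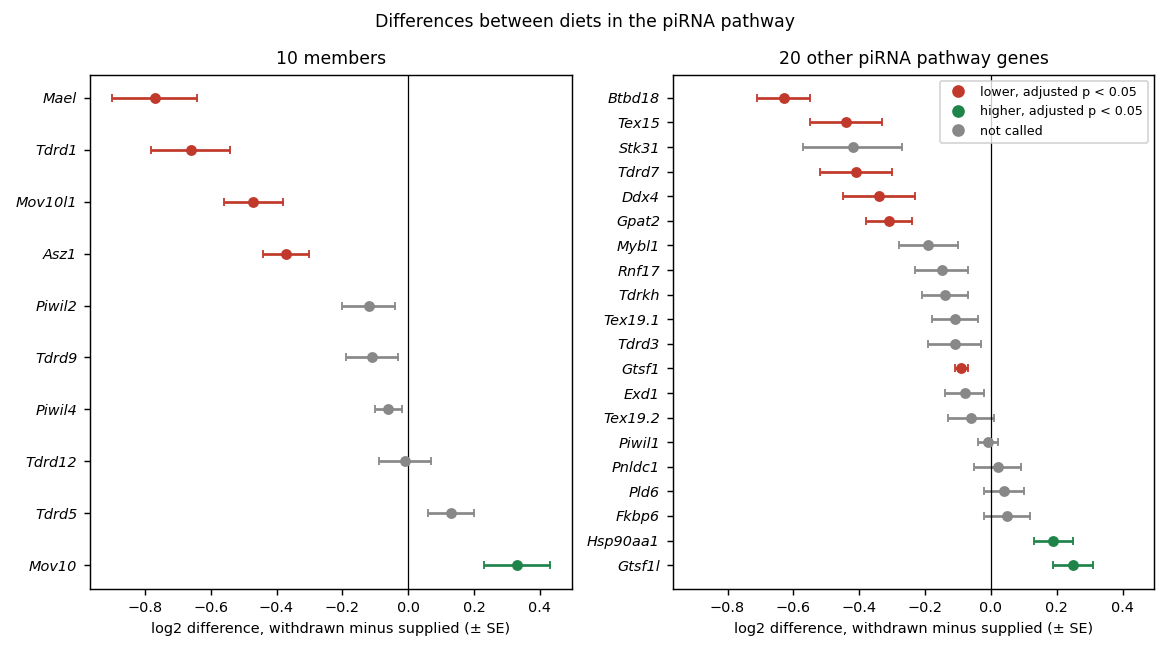
Log2 difference, withdrawn minus supplied, with its standard error for the 10 genes (left) and for 20 other genes of the piRNA pathway (right). Red points were called lower, green points higher and grey points were not called. Mael, at -0.77, stands farthest to the left in the left panel and Btbd18, at -0.63, in the right panel. Mov10, at 0.33, stands farthest to the right in the left panel and Gtsf1l, at 0.25, in the right panel.

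Levels of different genes were compared after subtracting the log2 of exon length in kilobases, with lengths from GENCODE M21 for 11250 of the tested genes. The authors' annotation and log transformation are unknown, so the order of genes is approximate, most of all for genes with low values. On this per-length scale the level of Mael was 8.22 ± 0.32 in withdrawn and 8.99 ± 0.28 in supplied embryos (SD, n = 6 each). Mael had the highest level of the 10 genes on this scale in supplied embryos, above 87.7% of genes, though the level of Mov10l1, at 8.91 ± 0.16, lay within its spread. In withdrawn embryos Mov10 led with a level of 8.72 ± 0.22, ahead of Mov10l1 at 8.44 ± 0.24, Asz1 at 8.38 ± 0.10, Tdrd5 at 8.27 ± 0.12 and Mael. The gap between Mov10 and Mov10l1 was slightly larger than either SD, and the levels of Mov10l1, Asz1, Tdrd5 and Mael each lay within the spread of the next. Tdrd12, Tdrd1, Tdrd9 and Piwil4 had lower levels in both groups, with 6.11 ± 0.20 for Tdrd12, 5.87 ± 0.33 for Tdrd1, 4.17 ± 0.17 for Tdrd9 and 3.00 ± 0.09 for Piwil4 in supplied embryos, where the median gene was at 6.56.

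Some embryos were at the end of their group in several genes at once. Withdrawn replicate 5 had the lowest value of its group in 7 of the 10 genes, Mael, Tdrd1, Tdrd12, Mov10l1, Asz1, Piwil2 and Piwil4, and the highest in Mov10 and Tdrd5. Supplied replicate 5 had the highest value of its group in 6 genes, Mael, Tdrd1, Tdrd5, Tdrd9, Mov10l1 and Piwil2, and the lowest in Asz1, Mov10 and Tdrd12. Supplied replicate 4 was the lowest supplied embryo in 5 genes, Mael, Tdrd1, Tdrd5, Mov10l1 and Piwil2, and the highest in Mov10 and Tdrd12. Its Asz1 value of 9.58 lay in the middle of the supplied embryos. Mael, Tdrd1, Mov10l1 and Asz1 stayed called in each of the 12 fits that left out 1 embryo.

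Stra8, the gene that opens meiosis in response to retinoic acid, and Sycp1, of the synaptonemal complex, moved with the same embryos. Stra8 was at 7.53 in withdrawn replicate 5, the lowest of all, at 8.66 in supplied replicate 4, inside the withdrawn range, and at 11.66 in supplied replicate 5, the highest. Sycp1 had the same order, with 8.69, 9.71 and 10.76 in these 3 embryos, but its 9.71 lay above the highest withdrawn value, 9.39. Pou5f1, which encodes the Oct4 used for sorting, ran the other way, with 13.19, 12.88 and 12.25. The part of meiotic stage in the piRNA gene differences was not tested.

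**Figure D3:**
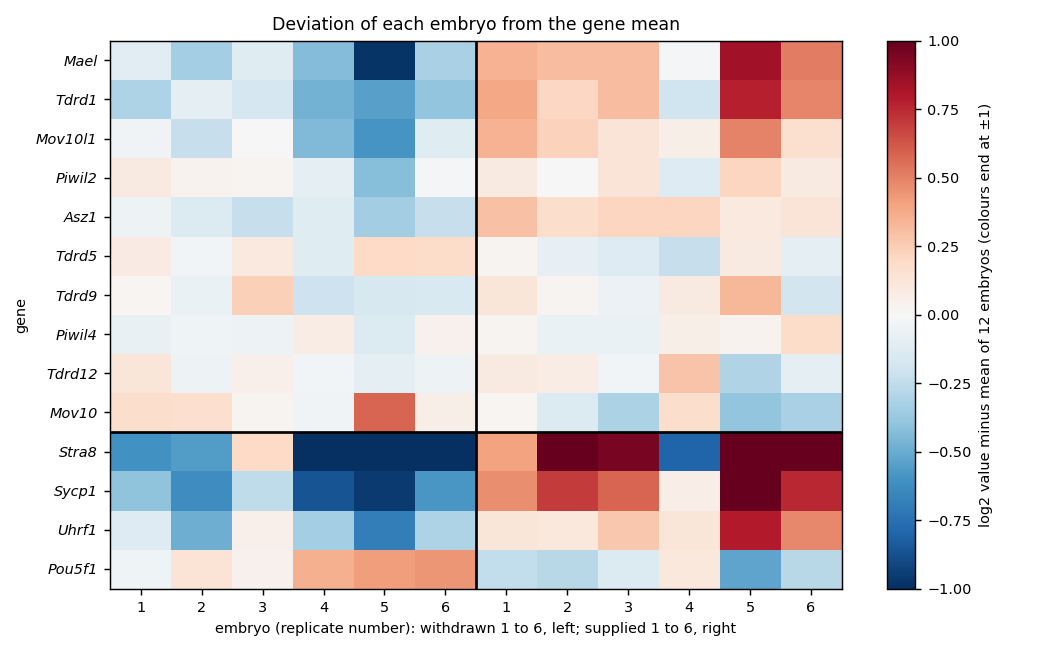
Deviation of each embryo (columns, 6 withdrawn left and 6 supplied right) from the gene's mean over 12 embryos, for the 10 genes and, below the line, for Stra8, Sycp1, Uhrf1 and Pou5f1. Colours end at ±1 log2 unit. Mael, Tdrd1, Mov10l1 and Piwil2, the last not called, share much of the pattern of Stra8 and Sycp1. Asz1 separates the diets with little variation within each.

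Relations of Stra8 with the 5 called genes were computed within each diet, 10 relations in all, with exact two-sided permutation tests over 6 embryos and Benjamini-Hochberg adjustment. These relations were not part of the planned results. Their p values treat the 6 embryos as exchangeable, although some share a title number. Embryos with more Stra8 had more Mael in both groups, with Pearson r = 0.86 (exact p = 0.0319, adjusted 0.0532) and Spearman rho = 0.71 (exact p = 0.136, adjusted 0.194) in withdrawn embryos. In supplied embryos r was 0.93 (exact p = 0.0153, adjusted 0.0528) and rho 0.83 (exact p = 0.0583, adjusted 0.117). Neither passed after adjustment, and without the 2 embryos farthest from the median of Stra8, r was 0.65 in withdrawn and 0.56 in supplied embryos. For Mov10 in supplied embryos r was -0.93 (exact p = 0.00417, adjusted 0.0417) and rho -0.94 (exact p = 0.0167, adjusted 0.0556), and r was -0.81 without those 2 embryos. In withdrawn embryos Mov10 gave r = -0.59 (exact p = 0.229, adjusted 0.255) and rho = -0.26 (exact p = 0.658, adjusted 0.658). After the same removal r was 0.98, a change of sign on few embryos. The removal narrows the range of Stra8, so a changed r does not show which embryos carry a relation.

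Tdrd1 gave r = 0.86 (exact p = 0.0264, adjusted 0.0528) and rho = 0.94 (exact p = 0.0167, adjusted 0.0556) with Stra8 in withdrawn embryos, and r = 0.92 (exact p = 0.025, adjusted 0.0528) and rho = 0.77 (exact p = 0.103, adjusted 0.171) in supplied embryos. Without the 2 farthest embryos the r of Tdrd1 was 0.86 in withdrawn and 0.18 in supplied embryos, where replicates 4 and 5 were removed. With 4 embryos left over a narrower range of Stra8, the fall does not show what carried the relation. Mov10l1 gave r = 0.86 (exact p = 0.0236, adjusted 0.0528) and rho = 0.83 (exact p = 0.0583, adjusted 0.117) in withdrawn embryos, and r = 0.64 (exact p = 0.165, adjusted 0.207) and rho = 0.60 (exact p = 0.242, adjusted 0.302) in supplied embryos. These became 0.61 and -0.77 without the 2 farthest embryos. Asz1 gave r = 0.40 (exact p = 0.412, adjusted 0.412) and rho = 0.31 (exact p = 0.564, adjusted 0.627) in withdrawn embryos, with r = 0.48 after the removal. In supplied embryos Asz1 gave r = -0.70 (exact p = 0.113, adjusted 0.161) and rho = -0.94 (exact p = 0.0167, adjusted 0.0556), and r was -1.0 after the removal, on 4 embryos. None of the Asz1 relations passed after adjustment.

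**Figure D4:**
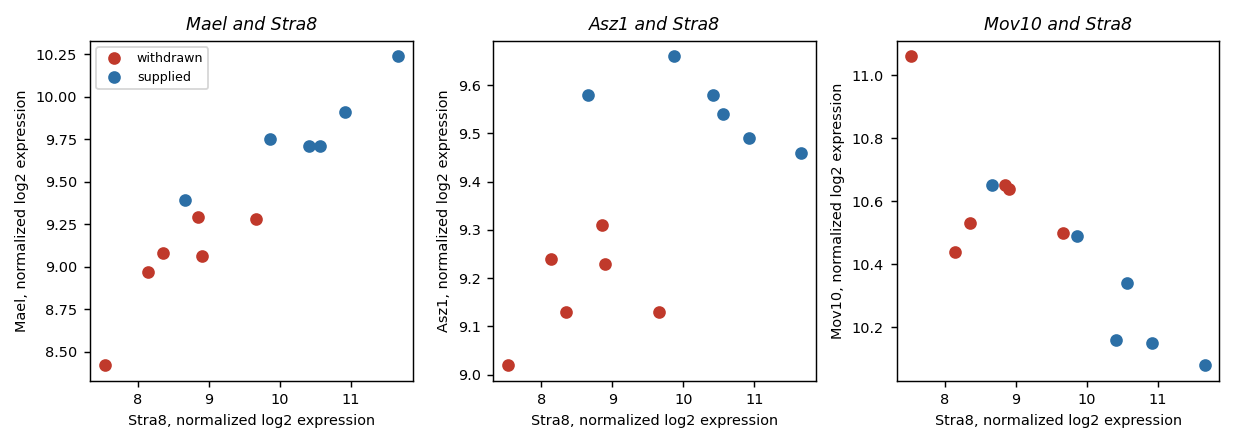
Mael, Asz1 and Mov10 (vertical axes) against Stra8 (horizontal axes) in 6 withdrawn (red) and 6 supplied (blue) embryos, all as normalized log2 expression. Embryos with more Stra8 have more Mael in both groups. The supplied embryo with Stra8 at 8.66 has an Asz1 of 9.58, in the middle of the supplied embryos. Its Mael of 9.39 is the lowest supplied value but lies above the highest withdrawn value, 9.29.

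The genes most like the called members were sought over the 12 embryos after the mean of each diet was subtracted, and the highest correlations among all tested genes are given as a description with no test. Nearest to Mael were Zfp238, a zinc finger repressor, with r = 0.982, Mtap7d2 with 0.970 and the tubulin gene Tuba3b with 0.964. Zfp238 was itself lower in withdrawn embryos (-0.75, limma adjusted p = 0.000852). Nearest to Tdrd1 were Tub (0.956), Slc4a1ap (0.951) and Ttc3 (0.936), and nearest to Mov10 were the DNA damage-binding gene Ddb1 (0.958), the purine synthesis gene Paics (0.952) and Zfp819 (0.946). Among the 10 genes, Piwil2 was closest to Mael on this measure (0.93), while Asz1 was at 0.18.

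A further 27 genes of the piRNA pathway were listed, of which 20 were tested. Of these, 6 were lower, 2 were higher and 12 were not called, a called share of 40.0% against 14.0% of all genes tested, with a median log2 difference of -0.11 against -0.01 over all genes. Btbd18, a nuclear regulator of piRNA precursor transcription in the testis listed under its older symbol Gm13718, was lower without overlap (6.89 ± 0.07 in withdrawn and 7.52 ± 0.19 in supplied embryos, SD, n = 6 each; -0.63, limma adjusted p = 0.000269). Also lower were Tex15 (-0.44), which acts with MIWI2 in transposon methylation in male germ cells, the Tudor gene Tdrd7 (-0.41), the nuage helicase gene Ddx4 (-0.34) and Gpat2 (-0.31), a mitochondrial partner of MILI. Gtsf1, a zinc finger partner of PIWI proteins, was called at -0.09 with values of 3.67 to 3.72 in withdrawn and 3.73 to 3.82 in supplied embryos, near the bottom of the table. Gtsf1l, a relative of Gtsf1, was higher (0.25, limma adjusted p = 0.00874), as was the chaperone gene Hsp90aa1 (0.19, limma adjusted p = 0.0329). The count of 8 called genes was 4 without supplied replicate 5, 1 with embryos of the same title number and diet averaged and 2 with the somatic covariate. The 1737 calls over all genes were 808, 298 and 388 in those fits.

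Chromatin factors that silence retroelements were called in both directions, 1 higher and 3 lower of 22 tested, with a median of -0.01. Morc1, needed for transposon silencing in male germ cells, was higher at 8.51 ± 0.18 in withdrawn and 8.11 ± 0.19 in supplied embryos (SD, n = 6 each; 0.40, limma adjusted p = 0.00829). The H3K9 methyltransferase gene Ehmt1 (-0.36), Dnmt3b (-0.27) and Uhrf1 (-0.63) were lower. Among genes of RNA interference and of restriction of viruses and retroelements, 3 of 17 were higher and 0 lower, with a median of 0.03. These were Bst2 (0.40, limma adjusted p = 0.00304), which encodes the virus-tethering protein tetherin, the ubiquitin ligase gene Trim25 (0.24) and the antiviral zinc finger gene Zc3hav1 (0.21). The called shares of these 2 lists, 18.2% and 17.6%, were near the 14.0% of all genes. Bst2 was the 1 call left in 6 of the 12 fits that left out 1 embryo.

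**Figure D5:**
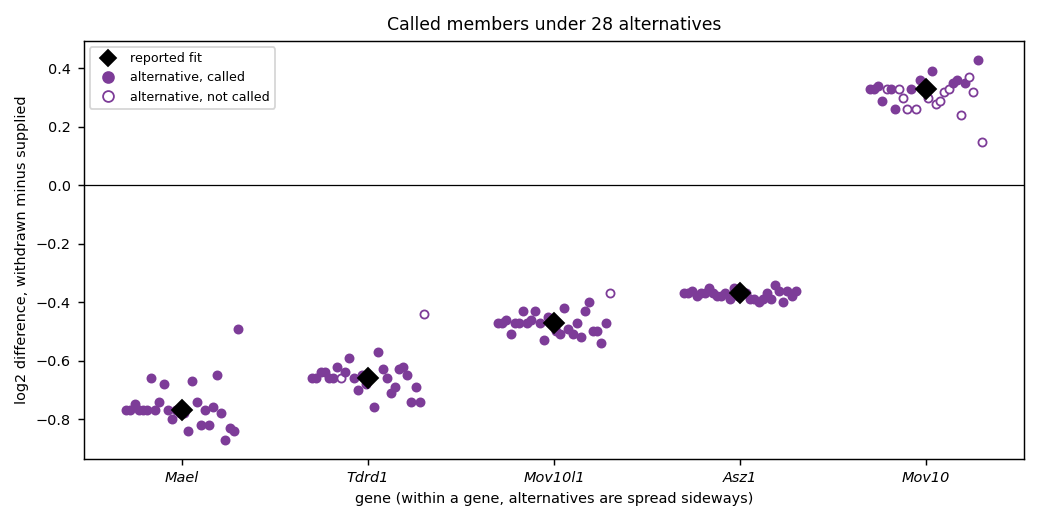
Log2 difference, withdrawn minus supplied, of the 5 called genes in the reported fit (black diamond) and in 28 alternatives (circles, filled where the gene was still called). The diamonds lie at -0.77 for Mael, -0.66 for Tdrd1, -0.47 for Mov10l1, -0.37 for Asz1 and 0.33 for Mov10, and no circle crosses 0.

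The direction of all 5 called genes held in each alternative run, though a changed filter, variance model, test or threshold alone cannot alter it. Mael and Asz1 stayed called in each of their 29 alternatives. Mael was -0.49 and Mov10 0.15 without the 4 embryos of title number 4 (2 per diet), where Mael and Asz1 alone were called among the 10 genes (adjusted p = 0.0344 for both) and 0.394% of all genes were.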

How the data were processed

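Germ cell RNA of 12 embryos was sequenced, and the authors deposited 1 table of normalized log2 values per gene symbol and embryo. Per the labels' protocols, total RNA of sorted cells went into a SMART-based library kit. The submitters' processing notes name Trim Galore 0.4.0, FastQC, TopHat2 2.0.13, DESeq2 1.10.1 and build mm9. How reads were counted, which annotation and gene filter were used and how the log2 values were formed is not given in the sources used here.

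Genes with a mean of at least log2 of 10 (3.32) over the 12 libraries were kept, which dropped 84. The 2 diets were compared in limma 3.58.1 (R 4.3.3), with variance trend, two-sided, adjusted by Benjamini-Hochberg over all genes kept. Log2 differences are withdrawn minus supplied means, with limma's moderated standard errors (SE) and 95% intervals. The fit was tested on simulated data with independent noise per gene and embryo, so that run does not cover embryos that move together. The members and lists were chosen with earlier results of these data known. Named genes are all members, the called genes of each list, the 3 nearest genes of Mael, Tdrd1 and Mov10 (gene models without a standard symbol skipped), and Stra8, Sycp1, Pou5f1 and Uhrf1. Older symbols were matched through RefSeq synonyms. A planned comparison of protein sequences was not made here.

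Sample titles carry a number from 1 to 4 found in both diets, and 4 of the 8 combinations of number and diet hold 2 embryos. The labels do not say what the number means. Alternatives changed the filter, scaling, variance model, weights, test, threshold, the treatment of title numbers, a somatic marker covariate, and left out embryos. The random effect used statmod 1.5.0. An exact permutation test over 6 against 6 embryos has 924 arrangements and a smallest p of 0.00216.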

Additional observations from a re-analysis of the deposited data

Results flagged for a closer look

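Withdrawn replicate 5 stood apart from the other 5 withdrawn embryos in 3 genes. Its Mael value was 8.42, where the others lay between 8.97 and 9.29. Its Mov10 value was 11.06, where the others lay between 10.44 and 10.65. Its Piwil2 value was 10.04, where the others lay between 10.37 and 10.55. In each case the gap to the nearest embryo was over 0.625 of the range of the group, Dixon's limit for 6 samples. Of 20 groups tested (10 genes in 2 diets) 3 were flagged, all in this embryo. Chance flags about 1 in 20 groups, but these 3 flags were not independent. After the mean of each diet was subtracted, Mael correlated with Piwil2 at 0.93 and with Mov10 at -0.81. Without withdrawn replicate 5 the differences of Mael, Mov10 and Piwil2 were -0.65, 0.24 and -0.05, and Mov10 was no longer called.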

How the results depend on the processing

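For the 10 genes, 270 of 289 recomputed differences stayed on the same side of the threshold and 19 fell short of it. Of the 19, 16 were of Mov10, 2 of Tdrd1 and 1 of Mov10l1, each out of 29 alternatives. Part of the 270 came from the genes not called, which stayed so throughout. None of the called genes changed direction, but a changed filter, variance model, test or threshold alone cannot alter a difference. Tdrd12, which was not called, was above 0 in 8 alternatives. Over all fits Mael ranged from -0.87 to -0.49, Tdrd1 from -0.76 to -0.44, Mov10l1 from -0.54 to -0.37, Asz1 from -0.40 to -0.34 and Mov10 from 0.15 to 0.43. Adjusted p ranged from 0.000122 to 0.0482 for Mael, 0.0000670 to 0.0810 for Tdrd1, 0.000948 to 0.0810 for Mov10l1, 0.000613 to 0.0482 for Asz1 and 0.00758 to 0.444 for Mov10. Calls were lost without title number 4 by Tdrd1 (-0.44), Mov10l1 (-0.37) and Mov10 (0.15), and with the exact test by Tdrd1 (-0.66) and Mov10 (0.33). Mov10 also lost its call with no variance trend (0.33), the random effect (0.30), averaged embryos (0.26), the somatic covariate (0.26), title number 1 left out (0.37), title number 2 left out (0.32) and a threshold of 0.01 (0.33). Leaving out 1 embryo gave Mov10 differences of 0.24 to 0.39, and its call was lost in 7 of 12 such fits. The cause was not tested.

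The 1737 genes called numbered 558 with the exact test, 886 with the random effect, 298 with embryos averaged, 388 with the somatic covariate, 729 without title number 1, 49 without title number 4, 444 at a threshold of 0.01, and 808 to 2315 with 1 embryo left out. The lowest of these was without supplied replicate 5, and 1133 were called without supplied replicate 6. The 5 called members numbered 3 with the exact test, 2 without title number 4 and 4 to 5 with 1 embryo left out. The 8 called other piRNA genes numbered 4 with the exact test, 1 with embryos averaged, 2 with the somatic covariate, 5 without title number 1, 1 without title number 4, 3 at a threshold of 0.01 and 4 to 10 with 1 embryo left out. The 4 chromatin genes numbered 2 with embryos averaged, 0 without title number 4 and 4 to 5 with 1 embryo left out. The 3 RNA interference and restriction genes numbered 1 with quantile normalization, the exact test, the random effect, averaged embryos, the somatic covariate, title number 1 or 2 left out, and a threshold of 0.01, 0 without title number 4, and 1 to 4 with 1 embryo left out. Deviations of embryos with the same title number correlated between diets at 0.270, -0.104, 0.178 and -0.171 for numbers 1 to 4. With so few embryos per number and no reference value, these correlations cannot decide whether the number pairs the embryos. With the title number as a replicate block 2062 genes and 5 members were called. Depth is unknown, so counting error could not be given.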
